A study of Canis lupus familiaris with 6 samples.

Results

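The laminin chains LAMA1, LAMA2, LAMA4, LAMA5, LAMB1, LAMB2 and LAMC1 and the linkers NID1, NID2 and HSPG2 were examined in canine osteosarcoma cells. These 10 genes were taken by symbol. Every probe set annotated with only that symbol was used, and the brightest probe set over the 6 arrays stood for the gene. Of the 10 genes 9 had at least 1 probe set, out of 15115 genes so measured, and LAMA2 had none and is not analysed here. The cells were 6 primary lines from osteosarcoma, a malignant bone tumour, all grown in serum-supplemented medium, handled alike and collected before confluence. UWKOS1, UWKOS3 and UWKOS7 form tumours after transplant into mice (tumorigenic, n = 3), while UWKOS2, UWKOS6 and UWKOS8 do not (non-tumorigenic, n = 3). Each line was measured on 1 Affymetrix array, with RNA from culture rather than from transplants, and the study had no reference line. The labels do not say whether the lines came from different dogs, and p-values measure the spread between these lines.

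Laminins are secreted trimers of an alpha, a beta and a gamma chain that polymerise on the cell surface and start the assembly of a basement membrane. The gamma1 chain binds nidogens, which bridge the laminin sheet to the type IV collagen network, and perlecan, the product of HSPG2, is a heparan sulfate proteoglycan that binds nidogens and other matrix proteins. Cells hold on to laminin through integrins and through dystroglycan. The alpha4 chain is typical of mesenchymal and vascular cells, alpha1 of early embryonic and some epithelial basement membranes and alpha5 of epithelial and vascular ones. The beta2 chain replaces beta1 at the neuromuscular synapse and in the kidney glomerulus.

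Values are log2 expression as deposited. A difference is the tumorigenic mean less the non-tumorigenic mean on that scale. A gene was tested if its brightest probe set averaged at least 6.07, the median over all probe sets that were not controls, and passed if its limma adjusted p over all 21462 tested probe sets was below 0.05. Of the 9 measured members 6 were tested, namely LAMA4, LAMB1, LAMB2, LAMC1, NID2 and HSPG2. LAMA1, LAMA5 and NID1 were dimmer. NID2 reached the filter through the tumorigenic lines, its non-tumorigenic mean being 5.29. Levels of different genes are not compared, because probe sets differ in brightness for the same amount of RNA.

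The arrays had medians of 6.03 to 6.05. The difference between the ends of the beta-actin transcript, which grows when RNA is fragmented or copied short, was 2.86 in UWKOS6 and 2.07 in UWKOS8 and 0.64 to 1.11 in the other lines. For GAPDH it was highest in UWKOS8 (1.98) and UWKOS6 (1.21), against 0.86 to 1.07 elsewhere. The hybridization controls averaged 9.83 to 10.01 in the tumorigenic lines and 10.11 to 10.12 in the non-tumorigenic lines, without overlap. Of 8 measured osteoblast lineage markers the bone collagens COL1A1 and COL1A2 were bright in every line, at 12.28 to 14.60. The bone sialoprotein gene IBSP (3.57 to 4.11) and the phosphatase gene ALPL (5.40 to 5.97) lay below the filter value throughout, and SPP1, which encodes osteopontin, lay above it only in UWKOS1 (9.76). OMD, which encodes the bone matrix proteoglycan osteomodulin, was the 1 of 5 tested osteoblast markers that passed. Over all tested genes 4.52% passed lower. OMD differed by -4.53 without overlap (limma adjusted p = 0.0262). It did not pass without UWKOS6 (limma adjusted p = 0.103) or UWKOS8 (limma adjusted p = 0.0810). Its tumorigenic mean was 5.28, so it reached the filter through the non-tumorigenic lines, and the size of its fall is uncertain. COL1A2 differed by -0.93 without overlap and missed the threshold (limma adjusted p = 0.0706). The other tested markers did not pass and their groups overlapped: COL1A1 differed by -0.55, BGLAP by -0.44 and RUNX2 by 0.22. Of the markers below the filter, IBSP was higher by 0.43 without overlap. SPP1 differed by 2.26 and ALPL by -0.24, both with overlap. The markers of this list thus differed in sign. The part of osteoblast differentiation in the members' differences was not tested.

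The beta2 chain gene LAMB2 fell in the tumorigenic lines, and it was the member that passed. Its brightest probe set read 7.94 in UWKOS1, 8.34 in UWKOS3 and 8.81 in UWKOS7, against 10.52 in UWKOS2, 10.66 in UWKOS6 and 10.51 in UWKOS8. The groups did not overlap, and the non-tumorigenic lines lay close together. The means were 8.36 ± 0.44 (SD, n = 3) and 10.56 ± 0.08 (SD, n = 3). The difference was -2.20 (SE 0.25, 95% interval -2.79 to -1.61, limma adjusted p = 0.0124), a level 4.59-fold lower. In cultures measured in bulk, fewer cells expressing a gene and less RNA per cell cannot be told apart.

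Of 6 tested members 1 was lower, against 4.52% of the 9145 tested genes, and 0 were higher with limma, against 7.30%. At an unadjusted p below 0.05, LAMB2, LAMA4 and HSPG2 were lower and NID2 was higher. The share of all tested genes under that unadjusted threshold was not computed, here or for the lists below. It is at least as large as the share at an adjusted p, so no excess is read from unadjusted counts. Groups did not overlap in LAMB2 and LAMA4, both lower, where 16.6% of all tested genes were lower without overlap and 21.7% higher without overlap. The median difference of the 6 tested members was -0.99, and that of all 9145 tested genes was 0.03. With so few members, these shares are a description of the list.

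**Figure D1:**
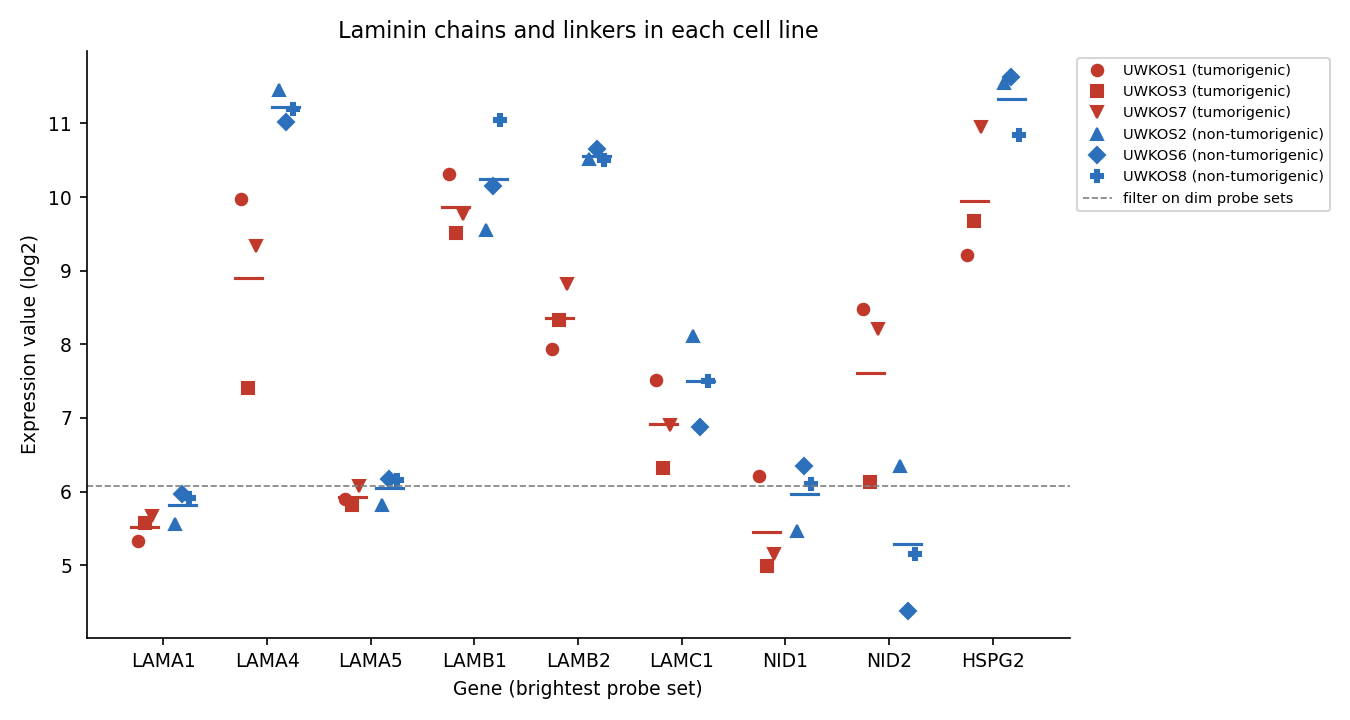
Log2 expression value of the brightest probe set of each measured member in each line, with tumorigenic lines in red, non-tumorigenic lines in blue, group means as bars and the filter value of 6.07 as a dashed line. LAMB2 and LAMA4 are lower in every red line than in any blue one, while the symbols of LAMB1 and LAMC1 are mixed.

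The other probe sets of LAMB2 moved the same way. All 4 tested ones fell, and their groups did not overlap. They come from the same arrays and are not independent of each other. The share of all tested probe sets without overlap was not computed. The second brightest differed by -1.95 (limma adjusted p = 0.0142), and the remaining tested ones by -0.79 each (limma adjusted p = 0.0348 and 0.0488). They averaged only 6.47 and 6.57 over the lines, in the same order, near the filter value. The 2 dimmest, below the filter, differed by -0.05 and -0.15. Across the 33 probe sets of the members, 17 were tested. The 4 of LAMB2 were the ones that passed lower, against 4.74% of all tested probe sets, and 0 passed higher with limma, against 7.28%. With the mean of its 6 probe sets in place of the brightest, LAMB2 differed by -0.99 and passed (limma adjusted p = 0.0238).

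The size of the LAMB2 difference held with each line left out, between -2.42 and -1.99. It passed in 5 of these 6 fits and missed the threshold without UWKOS6 (limma adjusted p = 0.0686). In that fit 0.120% of genes passed lower and 0 of the 6 members passed, with LAMA4 and LAMB2 lower at an unadjusted p below 0.05. Against UWKOS2 alone, without UWKOS6 and UWKOS8, the difference was -2.16 (limma adjusted p = 0.287). It was -2.15 with the GAPDH transcript-end difference as a covariate (limma adjusted p = 0.0747) and -2.04 with that of beta-actin (limma adjusted p = 0.148). LAMB2 passed with neither covariate. UWKOS6 and UWKOS8, the lines with the widest transcript-end differences, are both non-tumorigenic. The part of RNA quality in the LAMB2 difference cannot be told apart from the group here and was not tested.

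The alpha4 chain gene LAMA4 had an estimate as large as LAMB2 and did not pass. Its brightest probe set read 9.98 in UWKOS1, 7.41 in UWKOS3 and 9.33 in UWKOS7, against 11.46 in UWKOS2, 11.02 in UWKOS6 and 11.20 in UWKOS8. Every tumorigenic line lay below every non-tumorigenic one, and UWKOS3 lay furthest down. The difference was -2.32 (SE 0.63, 95% interval -3.83 to -0.81, limma adjusted p = 0.0603). The tumorigenic SD was 1.34 and the non-tumorigenic SD 0.22. All 4 probe sets of LAMA4 were tested, and in all 4 the groups did not overlap. Read from the same arrays, these probe sets are not independent of each other. They differed by -2.42 to -1.97, with limma adjusted p between 0.0525 and 0.0855. Without UWKOS3 the difference shrank to -1.57 and passed (limma adjusted p = 0.0493).

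**Figure D2:**
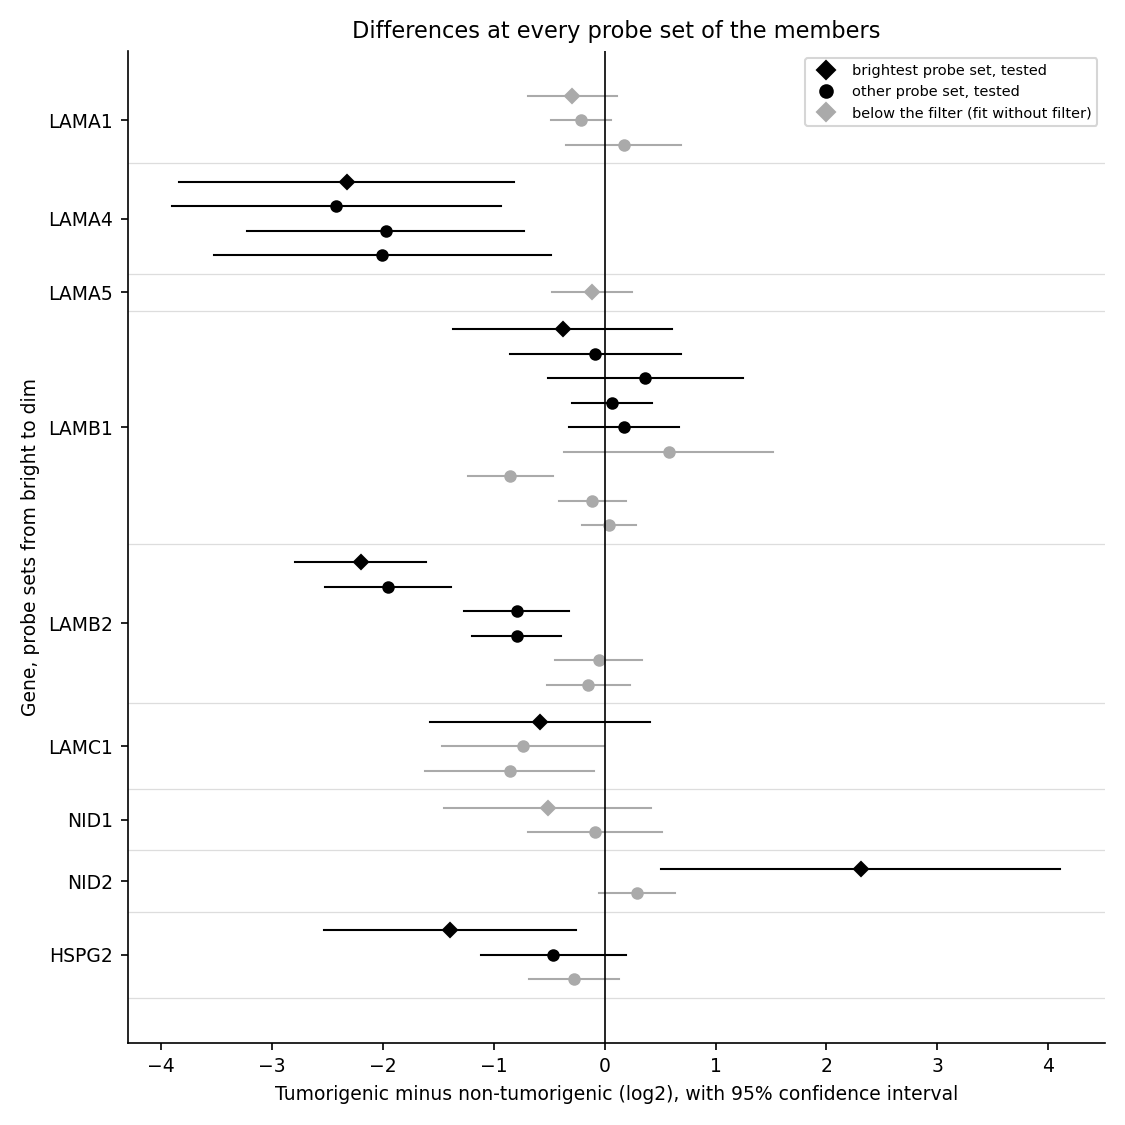
Difference between tumorigenic and non-tumorigenic lines (log2) at each probe set of the 9 measured members, with its 95% confidence interval, the brightest probe set as a diamond and probe sets below the filter in grey. All 4 probe sets of LAMA4 lie between -2.42 and -1.97, whereas those of LAMB1 lie on both sides of 0.

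The other 2 alpha chains measured were dim. LAMA1 read 5.33 in UWKOS1, 5.58 in UWKOS3 and 5.68 in UWKOS7, against 5.56 in UWKOS2, 5.97 in UWKOS6 and 5.92 in UWKOS8. The groups overlapped, and the difference was -0.29. Of the 3 probe sets of LAMA1, a dimmer one differed by -0.22 without overlap and another by 0.17 with overlap. LAMA5 had 1 probe set, which read 5.90 in UWKOS1, 5.82 in UWKOS3 and 6.08 in UWKOS7, against 5.81 in UWKOS2, 6.17 in UWKOS6 and 6.16 in UWKOS8. It differed by -0.11, again with overlap. Both stayed outside the test, and in a fit without the filter neither passed (limma adjusted p = 0.360 and 0.700). Values at this brightness are not known to lie above background.

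LAMB1, which encodes the widely expressed beta1 chain, showed no difference that passed. Its brightest probe set read 10.32 in UWKOS1, 9.51 in UWKOS3 and 9.78 in UWKOS7, against 9.55 in UWKOS2, 10.15 in UWKOS6 and 11.04 in UWKOS8. The highest values came from 1 line of each group, and the groups overlapped. The difference was -0.38 with an interval of -1.37 to 0.61 (limma adjusted p = 0.567). Its direction was not stable: without UWKOS8 the difference was 0.020. Of the 9 probe sets of LAMB1, 4 were lower and 5 higher on average. A dim one at 3.50 over the lines differed by -0.85 without overlap and passed in the fit without the filter (limma adjusted p = 0.0419).

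LAMC1, which encodes the gamma1 chain shared by most laminins, was not called either. It read 7.52 in UWKOS1, 6.33 in UWKOS3 and 6.91 in UWKOS7, against 8.11 in UWKOS2, 6.88 in UWKOS6 and 7.51 in UWKOS8. The values of the 2 groups interleaved, with UWKOS3 lowest and UWKOS2 highest. The difference was -0.58 (95% interval -1.57 to 0.41, limma adjusted p = 0.375). Single lines moved it: it was -0.28 without UWKOS2, -0.29 without UWKOS3, -0.88 without UWKOS1 and -0.89 without UWKOS6, and it passed in none of these fits. Its 2 dimmer probe sets differed by -0.74 and -0.86 and lay below the filter.

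The change of LAMB2 was set against that of LAMB1 within each line. LAMB2 minus LAMB1 was -2.38 in UWKOS1, -1.18 in UWKOS3 and -0.96 in UWKOS7, against 0.97 in UWKOS2, 0.51 in UWKOS6 and -0.54 in UWKOS8. The groups did not overlap, and their means differed by -1.82. This was 1 of 4 such pairs, chosen after the values were seen, and 20 assignments of the lines cannot give an exact permutation p below 0.1. LAMA4 relative to LAMC1 differed by -1.74 and LAMB2 relative to LAMC1 by -1.62. The fourth pair, NID2 and NID1, is not given, because NID1 lay below the filter. Each of these values gave a two-sided exact permutation p = 0.1, and 0.1 after Benjamini-Hochberg adjustment over the 4, so they describe these lines and test nothing beyond the LAMB2 and LAMA4 values behind them.

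Among the linkers, NID2 was the tested member with the opposite sign. Nidogen-2 is one of the pair of nidogens, both of which bind the laminin gamma1 chain and type IV collagen. Its brightest probe set read 8.48 in UWKOS1, 6.13 in UWKOS3 and 8.20 in UWKOS7, against 6.35 in UWKOS2, 4.38 in UWKOS6 and 5.15 in UWKOS8. UWKOS1 and UWKOS7 stood above the rest, while UWKOS3 lay slightly below UWKOS2, so the groups overlapped. The difference was 2.31 (SE 0.75, 95% interval 0.51 to 4.11) and did not pass (limma adjusted p = 0.0907). Without UWKOS3 it was 3.05 (limma adjusted p = 0.0550). The non-tumorigenic mean of NID2, 5.29, lay below the filter value, so the size of the difference is uncertain. The other probe set of NID2, below the filter, differed by 0.29. Against UWKOS2 alone, without UWKOS6 and UWKOS8, the NID2 difference was 1.25 (limma adjusted p = 0.705).

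NID1, the other nidogen, lay below the filter. It read 6.21 in UWKOS1, 4.997 in UWKOS3 and 5.16 in UWKOS7, against 5.46 in UWKOS2, 6.34 in UWKOS6 and 6.10 in UWKOS8. The groups overlapped, with UWKOS1 among the high lines and UWKOS2 between the rest. The difference was -0.51, and its limma adjusted p without the filter was 0.487. UWKOS6 was the line with the highest NID1 value and the lowest NID2 value.

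HSPG2 was lower on average and did not pass. Its brightest probe set read 9.21 in UWKOS1, 9.68 in UWKOS3 and 10.95 in UWKOS7, against 11.54 in UWKOS2, 11.62 in UWKOS6 and 10.85 in UWKOS8. UWKOS7 lay above UWKOS8, and this was the only crossing of the groups. The difference was -1.39 (SE 0.47, 95% interval -2.53 to -0.26, limma adjusted p = 0.0997). Without UWKOS7 it was -1.90 and passed (limma adjusted p = 0.0244). The 2 dimmer probe sets differed by -0.46 and -0.28.

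**Figure D3:**
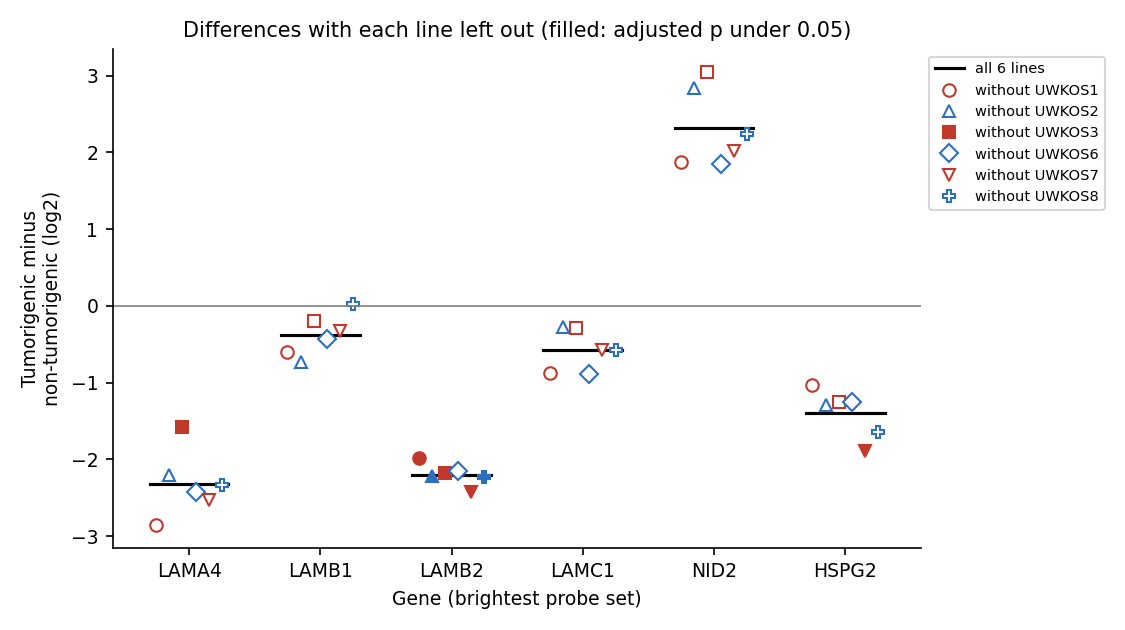
Difference between tumorigenic and non-tumorigenic lines (log2) of the 6 tested members with all lines (black bar) and with each line left out in turn (symbols, filled where the limma adjusted p was below 0.05). LAMB2 stays between -2.42 and -1.99 and passes in 5 of the 6 fits, whereas LAMA4 moves up to -1.57 without UWKOS3.

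The lines ordered the members differently. UWKOS3 was the lowest of the 6 lines in LAMA4, LAMB1, LAMC1 and NID1. UWKOS1 was the lowest in LAMA1, LAMB2 and HSPG2 and the highest in NID2. LAMA4 and NID2 spread most over the lines, by 4.05 and 4.10, and LAMA5 least, by 0.35.

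Of 9144 other tested genes, the one nearest to LAMB2 in its profile over the 6 lines was CYBRD1, an iron-regulated cytochrome b reductase, with a root mean square distance of 0.0954 on the log2 scale after the mean of each gene was taken off. The median distance over those genes was 1.19. CYBRD1 read 8.33 in UWKOS1, 8.49 in UWKOS3 and 9.14 in UWKOS7, against 10.98 in UWKOS2, 10.97 in UWKOS6 and 10.80 in UWKOS8. The unnamed locus LOC607874 and SERP2, related to a stress-associated protein of the endoplasmic reticulum, followed, at 0.176 and 0.179. All these profiles come from the same 6 arrays.

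Type IV collagen, the other network of the basement membrane, fell at both of its tested chains. COL4A2 read 10.53 in UWKOS1, 9.84 in UWKOS3 and 10.51 in UWKOS7, against 11.55 in UWKOS2, 12.04 in UWKOS6 and 12.00 in UWKOS8, a difference of -1.57 (SE 0.26, limma adjusted p = 0.0221). COL4A1 differed by -1.14 (SE 0.28, limma adjusted p = 0.0483). As with LAMA4, LAMB1 and LAMC1, UWKOS3 was the lowest line in both collagen chains. COL4A3, COL4A4, COL4A5 and COL4A6 lay below the filter. Among other basement membrane proteins, 1 of 8 tested fell and 0 rose with limma. At an unadjusted p below 0.05, 3 were lower and 1 was higher. For the adjusted calls of these proteins and the type IV chains, the shares over all tested genes were 4.52% lower and 7.30% higher. No such share was computed for the unadjusted count. COL15A1, a collagen at the outer face of basement membranes, fell by 1.69 (SE 0.38, limma adjusted p = 0.0404). SPARC, a collagen-binding matrix protein and next by p, differed by -0.88 without overlap (limma adjusted p = 0.0761). Of the 5 other laminin chains only LAMA3 was tested; its groups overlapped and it differed by -0.27 (limma adjusted p = 0.635). LAMB3, LAMB4 and LAMC3 lay below the filter, and LAMB3 differed by -0.10.

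The list of laminin receptors, which also holds genes of the dystrophin complex, had 2 lower genes among 12 tested and 0 higher with limma. Over all tested genes 4.52% passed lower and 7.30% higher. At an unadjusted p below 0.05, 3 genes of the list were lower and 1 was higher, a count to which those shares do not apply. DAG1, which encodes dystroglycan, read 8.44 in UWKOS1, 9.17 in UWKOS3 and 9.28 in UWKOS7, against 10.07 in UWKOS2, 10.12 in UWKOS6 and 10.05 in UWKOS8. The non-tumorigenic lines again lay close together, and the difference was -1.12 (SE 0.25, limma adjusted p = 0.0386). 1 of the 3 tested probe sets of DAG1 passed. SGCD, a sarcoglycan of the dystrophin complex, read 5.05 in UWKOS1, 5.91 in UWKOS3 and 4.76 in UWKOS7, against 9.52 in UWKOS2, 9.53 in UWKOS6 and 10.47 in UWKOS8, and fell by 4.60 (SE 0.39, limma adjusted p = 0.00735). SGCD also passed without UWKOS6 (limma adjusted p = 0.0409) and without UWKOS8 (limma adjusted p = 0.0314), but not with the GAPDH transcript-end difference as a covariate (limma adjusted p = 0.0564). Its tumorigenic values all lay below the filter value. It thus reached the filter through the non-tumorigenic lines, and the size of its fall is uncertain. The integrin chains differed in sign: ITGB1 by -0.94, ITGA7 by -1.74, ITGA6 by 0.92, ITGA3 by 0.72 and ITGB4 by 0.71, none past the threshold. ITGA7 read 9.70 in UWKOS6 and 8.29 in UWKOS8, but 6.78 in UWKOS2, near the 6.23 to 6.67 of the tumorigenic lines. Without both UWKOS6 and UWKOS8 it differed by -0.26.

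The enzymes that build the laminin-binding glycan on dystroglycan showed small differences. With limma 0 of 7 tested passed, 0 of them at an unadjusted p below 0.05 either, and the median difference was -0.11. RXYLT1 differed by -0.48 (limma adjusted p = 0.338) and POMT2 by -0.15 (limma adjusted p = 0.646). Of 12 tested enzymes that make or edit heparan sulfate, the glycan carried by perlecan, 1 fell and 0 rose with limma. The shares over all tested genes were 4.52% lower and 7.30% higher. Those shares are for adjusted p. At an unadjusted p below 0.05, with no share computed, 2 of these enzymes were lower and 0 higher. NDST2, a sulfotransferase of these chains, fell by 1.00 (SE 0.22, limma adjusted p = 0.0372), and next by p came B3GAT3, which completes the linker to the core protein, at -0.74 (limma adjusted p = 0.125). Of the genes of these lists that passed with all lines, COL4A1, COL4A2, COL15A1, DAG1 and NDST2 did not pass without UWKOS6 (limma adjusted p between 0.0943 and 0.164) or without UWKOS8 (limma adjusted p between 0.0713 and 0.141).

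**Figure D4:**
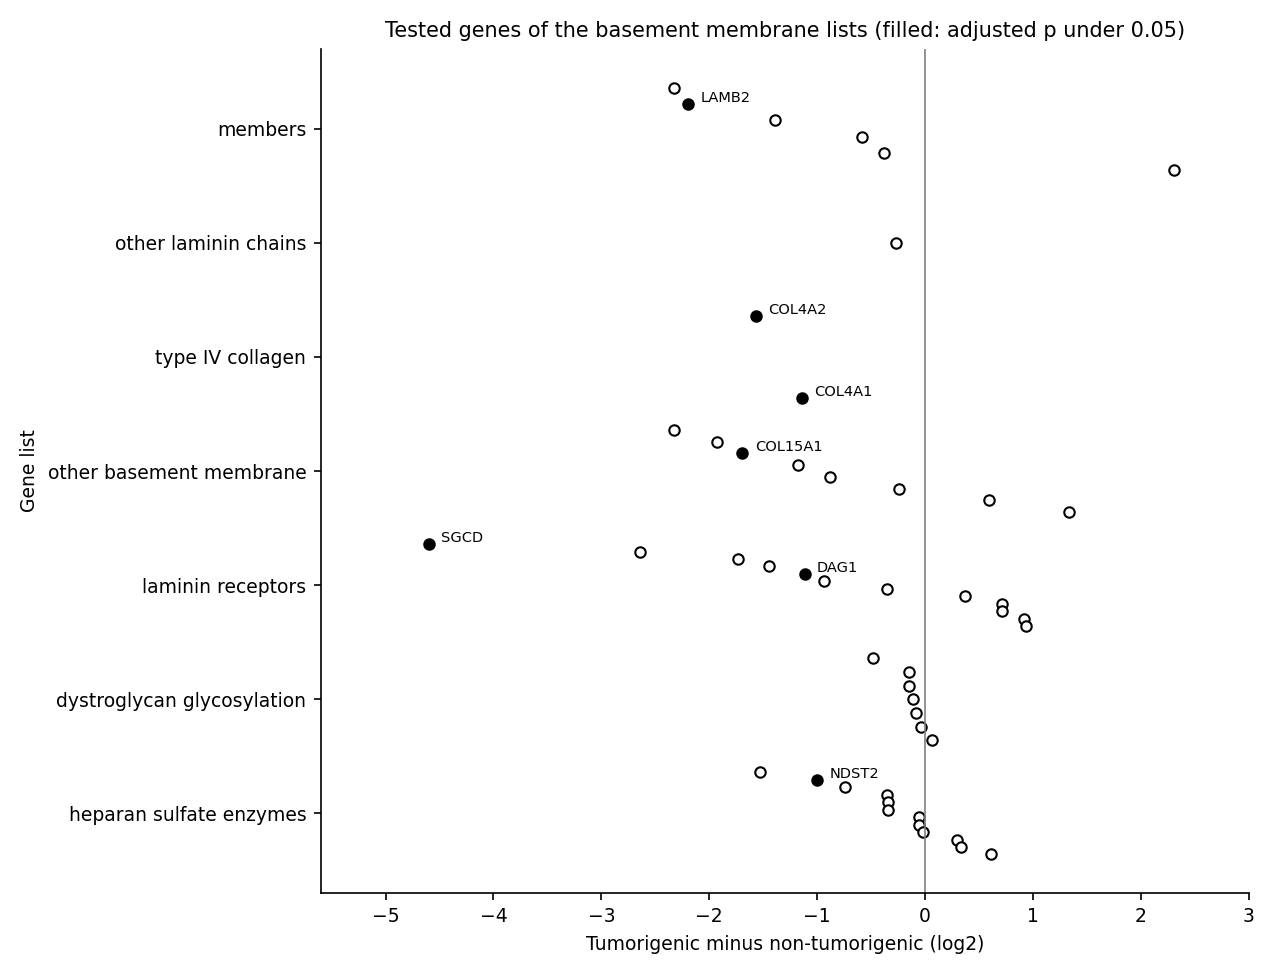
Difference between tumorigenic and non-tumorigenic lines (log2) for each tested gene of the member list and of 6 further lists, filled and named where the limma adjusted p was below 0.05. The 7 filled genes all lie below 0, and the dystroglycan glycosylation enzymes lie between -0.48 and 0.06.

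Smooth muscle markers differed in sign. Of 6 measured markers 4 were tested and 0 passed with limma, 1 being lower at an unadjusted p below 0.05. The mean level of the 6 was 5.94 to 9.06 in the tumorigenic lines and 9.15 to 9.23 in the non-tumorigenic lines. ACTA2, the smooth muscle actin, read 3.83 in UWKOS3, 11.44 in UWKOS1 and 12.72 in UWKOS7, against 14.21 to 14.30 in the non-tumorigenic lines. UWKOS3 was thus the lowest line for ACTA2 as for LAMA4. TAGLN, an actin-binding protein of smooth muscle, differed by -2.86 without overlap (limma adjusted p = 0.0923). CNN1, a calponin, differed by -1.92 with overlap, its highest value of 11.94 being in tumorigenic UWKOS7, and DES, which encodes desmin, by 0.40. MYH11 (5.29 to 5.75 over the lines) and RGS5 (3.96 to 4.53), which mark mature smooth muscle and pericytes, lay below the filter value throughout. The part of contractile differentiation in the LAMB2 and LAMA4 differences was not tested. Of 7 endothelial markers 3 were tested and 0 passed with limma, with 1 higher at an unadjusted p below 0.05, and their mean level was 5.88 to 6.08 in the tumorigenic and 5.67 to 5.92 in the non-tumorigenic lines. KDR was higher by 1.11 without overlap (limma adjusted p = 0.0905). PECAM1, below the filter, was higher by 0.84 without overlap and passed in the fit without the filter (limma adjusted p = 0.0451). TEK, also below it, differed by -0.25 without overlap, and the other endothelial markers overlapped. Of 7 epithelial markers 4 were measured, all below the filter on average. EPCAM read 7.65 in UWKOS1 and lay below the filter value in the other lines. KRT8 and KRT18, keratins of simple epithelia, read 6.49 and 7.44 in UWKOS1 and 6.64 and 6.41 in UWKOS3, and lay below the filter value in the other lines. Of 6 macrophage and blood markers 2 were tested, of 3 measured Schwann cell markers 2, and 0 of each passed with limma; 1 of the former was lower at an unadjusted p below 0.05. The part of other cell types in the members' differences was not tested.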

How the data were processed

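Per the labels' protocols, biotinylated cRNA of each of the 6 canine lines was made by the Affymetrix procedure from total RNA. The submitters' processing notes name MAS5 and give no version. The values as deposited range from 1.97 to 14.83 and were taken to be log2. Their nearly equal quantiles are unusual for MAS5, so the summary method is not settled here. They were used as deposited, with no offset. Detection calls were not used.

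The table held 43035 probe sets, 111 of them controls. Platform annotation paired 29254 of the remaining 42924 with a single symbol and 439 with more than 1, and it left 13231 unnamed. RefSeq gene identifiers renewed 27680 of the single symbols, while 1574 stayed as annotated. The 21462 probe sets at or above the median brightness entered limma 3.58.1 under R 4.3.3 (lmFit and eBayes on the 2 groups alone). Benjamini-Hochberg adjustment ran over all of them. The fit was tested on simulated data. The array number limits precision. Figures used matplotlib 3.10.9.

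The members and lists were chosen with earlier results of these data known. All members are named. From each other basement membrane list the passing genes are named, at most 4 by smallest p, or the 2 of smallest p where fewer passed. A passing member also has its 3 nearest genes named. The integrin chains, the dim chains of the collagen and laminin lists, and the marker genes given with values lie outside this rule and were chosen after their values were seen. Alternatives changed the filter, normalization, centring, variance model, probe set summary, adjustment, lines and transcript-end covariate. The beta-actin covariate and the within-line pairs of members were added after the data were seen. No sequence is shown, since none of these genes' sequences was among the material used here.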

Additional observations from a re-analysis of the deposited data

How the results depend on the processing

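The count of members lower in the tumorigenic lines was 1 with all lines. It was 2 with the upper-quartile filter or with array weights, where LAMA4 joined LAMB2. It was 0 with the GAPDH or the beta-actin covariate and 0 without both UWKOS6 and UWKOS8, and between 0 and 2 with 1 line left out: 0 without UWKOS6, and 2 without UWKOS3 (with LAMA4) or UWKOS7 (with HSPG2). No alternative gave a member that passed higher. The number of all tested genes that passed lower moved as well. It was 413 of 9145 with all lines, 347 of 5021 with the upper-quartile filter and 618 of 9145 with array weights. With the GAPDH and beta-actin covariates it was 7 and 4. Without UWKOS6, UWKOS3 and UWKOS7 it was 11, 140 and 496. Of 19 alternatives LAMB2 passed in 15 and kept its sign in all. LAMB1 changed sign with the GAPDH covariate (0.19), without UWKOS8 (0.020) and without both UWKOS6 and UWKOS8 (0.32), and ranged from -0.73 to 0.020 with 1 line left out. The cause was not tested. The median difference of the tested members was -0.99, -1.80 with the upper-quartile filter, where 4 members were tested, and -1.24 to -0.77 with 1 line left out.

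Over the whole array the calls numbered 2580, split into 1563 higher and 1017 lower. There were 3895 with array weights, 27 and 21 with the GAPDH and beta-actin covariates, 9 without both UWKOS6 and UWKOS8, and 52 (without UWKOS6) to 3169 (without UWKOS7) with 1 line left out, 1141 without UWKOS1, 1343 without UWKOS2, 647 without UWKOS3 and 437 without UWKOS8. With 1 probe set per gene, and so fewer features, 1069 passed after adjustment over genes and 1106 with the mean of probe sets. Centring on the hybridization controls moved the median of all tested genes from 0.03 to 0.21 and gave 2528 higher and 762 lower calls; LAMB2 then differed by -2.03 (limma adjusted p = 0.0120). Without UWKOS6 and UWKOS8, UWKOS2 stood alone, and its spread was taken to equal that of the tumorigenic lines. No paired analysis was possible because the replicate numbers follow accession order and pair no lines. Dim members cannot be told from background here, and 3 lines a group leave wide intervals.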
